A study of Mus musculus with 6 samples.

Results

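Goblet cells and enterocytes of the same cultures were compared after 25 h of tunicamycin, an inhibitor of N-linked glycosylation that causes stress of the endoplasmic reticulum (ER). The cells were those of the 2 libraries treated for 25 h that carry the depositors' class name goblet or enterocyte. They numbered 1067 of the 5122 cells of the series, and 1057 remained after a filter on mitochondrial content. Of these, 184 were goblet cells (98 in replicate 1 and 86 in replicate 2) and 873 were enterocytes (426 and 447).

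Cells were grown as differentiated monolayers from mouse intestinal spheroids of the cross Rosa26-floxed STOP-Cas9 with cmv-cre on B6. All 3 groups share that genotype, in which a Cre driven by the CMV promoter acts broadly and not in a single cell type. The groups were the solvent control DMSO and tunicamycin (0.5 µg/ml) for either 13 h or 25 h, with 2 libraries each, described by the series text as biological replicates. Treatment for 25 h began on differentiation day 3, the cultures treated for 13 h stood in DMSO until tunicamycin was added, and all were harvested on the morning of day 4. The tissue label names small intestine and the growth protocol names colonic spheroids, which the sources used here do not settle. Dead cells were removed before 10x Genomics 3' V2 library construction, so only cells that survived to harvest were measured.

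Goblet cells make and store mucus, a load of large disulfide-linked and O-glycosylated proteins, and keep an extensive ER. Enterocytes absorb nutrients through a brush border and export lipid as lipoprotein particles. When unfolded proteins accumulate, the sensors PERK, IRE1 and ATF6 start the unfolded protein response (UPR): PERK slows translation and favours ATF4, while XBP1 and ATF6 raise chaperones and the machinery of folding and degradation.

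The class names were set against marker genes after each cell was thinned to 5000 UMIs (unique molecular identifiers, the counted RNA molecules). At 25 h, at least 3 of 9 goblet markers had a UMI in 96 of 96 and 82 of 82 goblet cells, and in 48 of 424 (11.3%) and 38 of 443 (8.58%) enterocytes. At least 3 of 9 enterocyte markers had a UMI in 206 of 424 and 213 of 443 enterocytes, and in 19 of 96 and 18 of 82 goblet cells. Muc2, the secreted gel-forming mucin, had a UMI in 81.2% and 84.1% of goblet cells and in 2.59% and 3.39% of enterocytes. Without thinning the Muc2 shares were 91.8% and 90.7%, against 5.16% and 6.71%. Before thinning, median UMIs per cell were 13019 and 13437 in goblet cells and 16256 and 17862 in enterocytes. Most enterocytes had few goblet transcripts, with a median of 0 and 1 UMIs of Tff3 after thinning against 264.5 and 308 in goblet cells, but single enterocytes reached 286 and 326. The source of these UMIs was not tested. No goblet cell or enterocyte at 25 h carried 3 or more tuft, enteroendocrine, Paneth, immune or stromal markers at that depth. The labels do not say by what method cells received their class, so class markers may differ by construction. The weight below is therefore on how class differences at 25 h compare with those in DMSO.

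Raw UMIs were summed per library and class, which gave 1425291 and 1290741 UMIs for goblet cells and 7760117 and 8723550 for enterocytes at 25 h. Median mitochondrial shares were 2.86% and 3.00% in goblet cells and 7.41% and 7.40% in enterocytes. Goblet cells were 8.91% and 9.36% of cells in DMSO (exact binomial 95% intervals 7.35 to 10.7 and 7.75 to 11.2), 9.87% and 9.13% at 13 h, and 18.2% (15.1 to 21.8) and 15.8% (12.8 to 19.1) at 25 h. Dead cells were removed from all cultures, and 2 libraries a group cannot pass an exact test, so these shares are given without one. Levels below are CPM, counts scaled to a common class total, given for replicate 1 and replicate 2 in that order. A class difference is the log2 ratio of goblet to enterocyte, from the quasi-likelihood F test of edgeR with library as a block. The value after ± is the size of the ratio over the square root of F, in place of a standard error. It need not match a standard error where a class has few counts. The change is the class difference at 25 h minus that in DMSO, tested as an interaction. A difference is called where the Benjamini-Hochberg adjusted p over all 10458 genes tested is below 0.05.

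Printed here are 250 bases before the start of 4 ER chaperone and folding genes. Their class difference, large in DMSO, was near 0 or much smaller at 25 h. A match to the element marked below was also a condition for being shown, so the 4 do not stand for the list. Txndc5, whose class difference changed by -1.59, has a promoter in the same source without a match. The bases come from RefSeq on GRCm38.p6 and read 5′ to 3′ on the gene's strand. Capitals mark the 5 fixed bases at each end of the ER stress response element (ERSE), which is CCAAT, 9 bases of any kind and CCACG, searched on both strands.
Hspa5, chr2:34771840-34772089, + strand: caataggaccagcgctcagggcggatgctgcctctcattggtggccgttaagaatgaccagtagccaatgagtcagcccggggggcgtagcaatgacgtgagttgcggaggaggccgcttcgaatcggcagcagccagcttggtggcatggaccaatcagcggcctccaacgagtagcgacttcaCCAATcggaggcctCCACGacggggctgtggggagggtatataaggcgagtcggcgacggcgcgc
Pdia6, chr12:17266339-17266588, + strand: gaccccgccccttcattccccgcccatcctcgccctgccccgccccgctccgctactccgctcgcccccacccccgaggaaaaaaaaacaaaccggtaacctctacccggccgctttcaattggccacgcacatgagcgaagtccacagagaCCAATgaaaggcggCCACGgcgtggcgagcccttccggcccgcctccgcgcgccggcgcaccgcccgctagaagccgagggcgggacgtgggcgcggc
Hsp90b1, chr10:86705445-86705694, - strand: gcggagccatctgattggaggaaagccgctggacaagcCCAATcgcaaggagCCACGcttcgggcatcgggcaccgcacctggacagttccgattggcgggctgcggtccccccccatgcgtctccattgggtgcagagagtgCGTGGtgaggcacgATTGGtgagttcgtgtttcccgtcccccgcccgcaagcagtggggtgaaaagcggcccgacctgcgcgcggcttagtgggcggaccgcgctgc
Calr, chr8:84846932-84847181, - strand: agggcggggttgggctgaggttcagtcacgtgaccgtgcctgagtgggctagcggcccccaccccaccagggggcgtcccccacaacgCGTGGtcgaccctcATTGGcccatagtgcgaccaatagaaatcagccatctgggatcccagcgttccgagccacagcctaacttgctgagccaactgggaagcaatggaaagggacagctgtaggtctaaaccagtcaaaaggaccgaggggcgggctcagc

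The match began 65 bases before the start in Hspa5, 98 in Pdia6 and 162 in Calr, and at 212 and 107 bases in Hsp90b1. The element was found in 37 of 32851 promoters of the table (0.113%) and in 12 of the 8218 tested genes that have an entry (0.146%). Among 18 genes of the ER chaperone list with an entry, 7 held it (38.9%): Calr, Canx, Creld2, Dnajc3, Hsp90b1, Hspa5 and Pdia6. In the list of ER-associated degradation 2 of 17 genes held it (11.8%), Derl3 and Syvn1. It was found in 0 of 15 genes of the PERK-ATF4 list, 0 of 15 interferon-response genes and 0 of 5 mucus genes. The median change of the class difference was -0.10 for the degradation list and -1.51 for the interferon list. A link between the element and the changes was not tested. The amino acid response sequence TGATGCAA, read by ATF4 with its partners, was in 4 of 15 PERK-ATF4 genes (Atf3, Chac1, Nupr1 and Vldlr), in 0 of 18 chaperone genes and in 54 of the 8218 (0.657%). The UPR element TGACGTGG was in 2 of 18 chaperone genes and in 76 of the 8218 (0.925%), and it overlapped an ERSE in 2 promoters. A match is a description of these letters and not a shown binding site.

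Class differences at 25 h were broad. Of 10458 genes, 3387 were called (32.4%), 1544 higher in goblet sums (14.8%) and 1843 lower (17.6%). In DMSO 3666 were called (35.1%), 1773 higher (17%) and 1893 lower (18.1%). The change from DMSO to 25 h was called for 738 genes (7.06%), 267 with a higher class difference at 25 h (2.55%) and 471 with a lower one (4.5%). The balance of the 2 directions was not steady. Of the called changes 36.2% were higher with TMM scaling of all libraries, and 59% of the 687 called with scaling to total counts. With TMM it was 54.9% without 25 h replicate 1, 47.6% without DMSO replicate 2 and 48.6% with only the libraries compared. DESeq2, which differs in both test and scaling, called 310, of which 50% were higher. With total counts the median change of all genes moved from -0.05 to 0.07, so directions of the lists below are read against the median of all genes. Counts of list members below are to be read beside the shares of all genes given above.

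**Figure D1:**
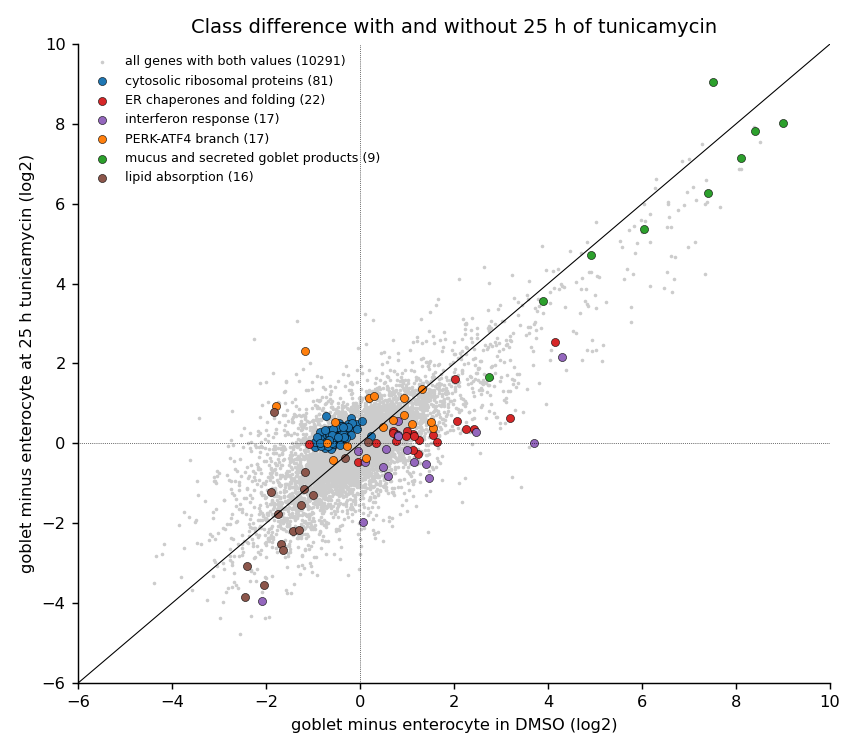
Each point is a gene, with its class difference (log2, goblet minus enterocyte) in DMSO on the horizontal axis and at 25 h on the vertical axis, and listed genes in colour. Mucus genes lie far to the upper right in both, ER chaperone genes lie below the diagonal, and ribosomal protein genes lie above it.

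Most large class differences of DMSO were called again at 25 h. Of 751 genes at least 2-fold higher in goblet sums in DMSO (7.18% of genes tested), 535 (71.2%) were called in the same direction at 25 h, 211 were not called and 5 were called in the opposite direction. Of 771 genes at least 2-fold lower (7.37%), 551 (71.5%) were called in the same direction, 211 were not called and 9 were opposite. Counted from 25 h, where 566 genes were at least 2-fold higher (5.41%) and 753 lower (7.2%), 427 of the former (75.4%) and 592 of the latter (78.6%) had been called in the same direction in DMSO. Among the 751, the class difference was smaller at 25 h by the interaction test for 173 and larger for 4. Among the 771 it was smaller for 56 and larger for 26. Their medians were 1.74 in DMSO and 1.21 at 25 h for the higher genes, and -1.56 and -1.31 for the lower genes. Counted from 25 h, the difference of the 566 higher genes was smaller in DMSO for 27 and larger for 64. Their medians were 1.73 at 25 h and 1.77 in DMSO. For the 753 lower genes it was smaller in DMSO for 88 and larger for 9, with medians of -1.59 and -1.24. Genes selected for a large difference in one group tend to a smaller one in the other, so both directions of the count are given. Leaving out a library in turn moved the first share between 56.7% and 79.4%, and the second between 53.8% and 79.9%.

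**Figure D2:**
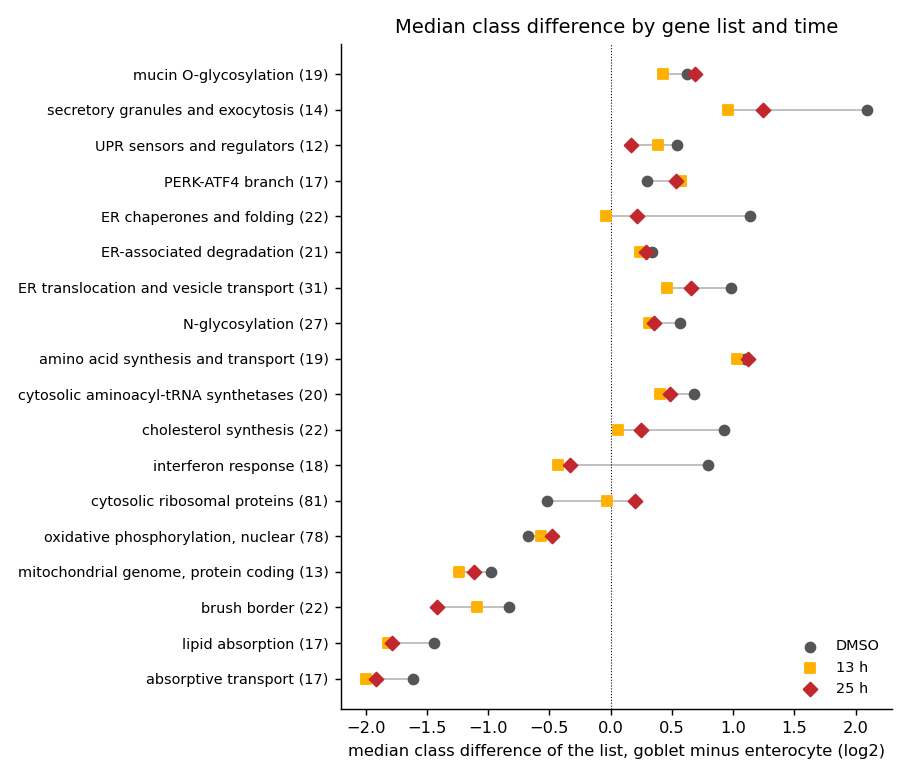
Median class difference (log2, goblet minus enterocyte) of each gene list in DMSO, at 13 h and at 25 h, with the number of tested members in brackets. ER chaperones moved from 1.13 in DMSO to 0.22 at 25 h, interferon response genes from 0.80 to -0.33, and ribosomal protein genes from -0.52 to 0.20.

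The mucus programme stayed far apart between the classes at 25 h. Muc2 was at 803 and 919 CPM in goblet sums and 11.9 and 10.3 CPM in enterocytes at 25 h. All goblet values lay above all enterocyte values, with a class difference of 6.27 ± 0.13. The class names may rest on such genes, so their class differences at 25 h are given as a description. Agr2, an ER-resident isomerase on which Muc2 depends, was at 6710 and 8087 against 38.2 and 20.1 CPM, a difference of 8.01 ± 0.14. Clca1, a mucus-processing protease, differed by 7.13 ± 0.12. Zg16, a lectin of mucus, was at 8099 and 12811 against 69.3 and 26.0 CPM, a difference of 7.82 ± 0.22. Tff3, a trefoil peptide, differed by 5.36 ± 0.09, and Fcgbp, a protein bound to the mucin network, by 3.55 ± 0.06. Ang4, an antimicrobial ribonuclease, differed by 9.04 ± 0.26, with only 3 and 1 UMIs in enterocyte sums. It had a UMI in only 14 of 98 and 10 of 86 goblet cells. A single cell held 77 of its 220 UMIs in replicate 1 and another 67 of 149 in replicate 2. Of 9 tested members of the mucus list, 8 were higher and 0 lower at 25 h, with a median of 6.27 beside -0.03 for all genes. Itln1, a lectin, was the exception at 2.71 and 3.88 against 1.59 and 0.445 CPM, with a difference of 1.66 ± 1.00. Retnlb and Klk1 did not pass the filter on low counts.

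The mucus genes stayed apart between the classes while they took a smaller share of goblet RNA. The list took 19.7% and 18.3% of goblet UMIs in DMSO. At 13 h it took 11.3% and 12.1%, and by 25 h this was 7.94% and 9.57%. Zg16 alone went from 68011 and 66612 CPM in DMSO goblet sums to the values above, while its enterocyte level also went from 171 and 231 to 69.3 and 26.0 CPM. Agr2 went the other way, from 3926 and 3606 CPM in DMSO goblet sums to 6710 and 8087 at 25 h. The class difference was lower at 25 h than in DMSO for 5 of the 9 genes, with a median change of -0.68 beside -0.05 for all genes. Muc2 changed by -1.12 ± 0.19 (edgeR, adjusted p = 3.46e-05), Tff3 by -0.68 ± 0.11, Agr2 by -0.98 ± 0.18, Clca1 by -0.97 ± 0.15 and Fcgbp by -0.34 ± 0.07.

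This reduction rested largely on 25 h replicate 1. Without it 1 mucus gene was lower and 1 higher, with a median of -0.09, and Agr2 changed by -0.24, Clca1 by -0.48, Tff3 by -0.19 and Fcgbp by -0.08, none of them called. Zg16 changed by -0.58 ± 0.24 with both libraries, which was not called, and by 0.64, which was called, without replicate 1. DESeq2 called none of the 9. In the same libraries the enterocyte level of Agr2 as a share of the goblet level was 0.21% and 0.19% in DMSO and 0.57% and 0.25% at 25 h. That of Muc2 was 0.71% and 0.47%, then 1.49% and 1.13%. The UMIs in goblet cells per UMI in enterocytes were 0.0744 and 0.0814 in DMSO and 0.184 and 0.148 at 25 h. The part of free goblet RNA in these smaller differences was not tested.

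**Figure D3:**
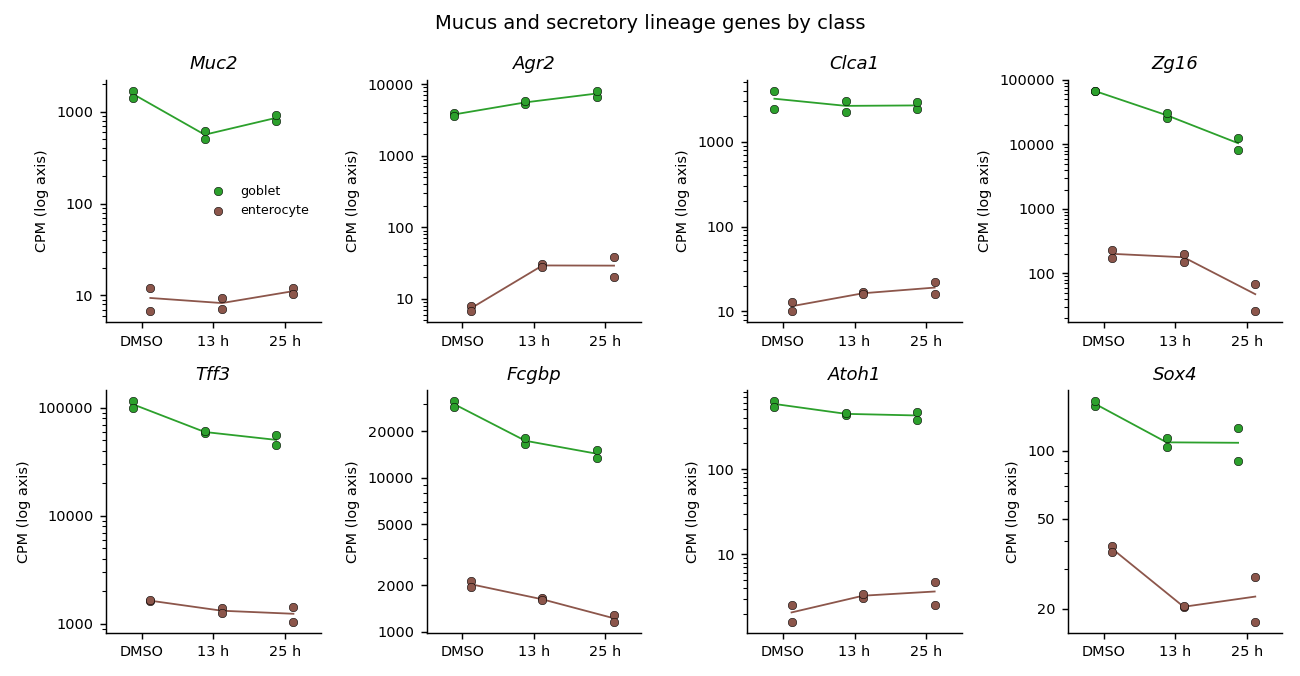
CPM (log axis) of 6 mucus genes and the lineage factors Atoh1 and Sox4 in each class sum, as points for the 2 libraries and lines through their means, in DMSO, at 13 h and at 25 h. Goblet points lie above enterocyte points in every panel and group, also where the goblet level is lower at 25 h than in DMSO, as for Zg16.

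All 11 tested goblet and secretory lineage factors were higher in goblet sums at 25 h, as all 11 were in DMSO. The count was partly set beforehand, since several members passed the filter on low counts through goblet sums alone. At 25 h Spdef had 47 and 48 UMIs in goblet sums against 1 and 2 in enterocytes. Foxa2 had 45 and 53 against 2 and 3, and Gfi1 13 and 20 against 3 and 0. Atoh1, the transcription factor that commits cells to the secretory fate, was at 378 and 471 CPM against 4.76 and 2.56 CPM, a difference of 6.87 ± 0.14. Spdef, which drives goblet maturation, was at 31.9 and 37.3 against 0.12 and 0.22 CPM, a difference of 7.50 ± 0.42. Its difference in DMSO was 7.26 ± 0.30, and the change of 0.23 ± 0.73 was not called. Klf4, a zinc-finger factor of goblet and differentiated cells, differed by 0.86 ± 0.07 both in DMSO and at 25 h. Sox4 differed by 2.26 ± 0.13, Foxa2 by 6.87 ± 0.41, Foxa3 by 5.05 ± 0.25, Gfi1 by 5.97 ± 0.77 and Bhlha15 by 4.32 ± 0.71, with no called change. Of the 11, a change was called for Atoh1 alone, at -1.24 ± 0.28 (edgeR, adjusted p = 0.00292). It was not called without 25 h replicate 1 (-0.50), without DMSO replicate 2 (-0.99) or by DESeq2 (-1.21).

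Genes that decorate and release mucus also stayed apart. Of 19 mucin O-glycosylation genes, 11 were higher and 3 lower in goblet sums at 25 h, against 10 and 3 in DMSO. The shares lower were no larger than those of all genes, 17.6% at 25 h and 18.1% in DMSO. Gcnt3, which branches mucin glycans, was at 477 and 439 against 158 and 163 CPM, a difference of 1.51 ± 0.08, and its change of 0.18 ± 0.11 was not called. St3gal4, a sialyltransferase, was at 361 and 262 CPM in goblet sums and 860 and 856 in enterocytes, a difference of -1.47 ± 0.08 that had been -0.30 ± 0.08 in DMSO. Of 14 genes of secretory granules and exocytosis, 9 were higher and 2 lower at 25 h and 12 were higher in DMSO, with medians of 1.24 and 2.10. Rab27b, a GTPase of granule docking, differed by 3.06 both in DMSO (± 0.13) and at 25 h (± 0.20). Sytl2, a Rab27 effector, differed by 5.42 ± 0.16 at 25 h and 6.61 ± 0.15 in DMSO. Its change of -1.19 ± 0.28 was called, but not without 25 h replicate 2 (-1.01) or DMSO replicate 1 (-0.83).

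ER chaperones and folding enzymes, by contrast, no longer separated the classes as they had in DMSO. Hspa5, the ER chaperone BiP, was at 573 and 559 CPM in goblet sums and 156 and 210 in enterocytes in DMSO. At 25 h it was at 3030 and 2924 CPM in goblet sums and 2824 and 3045 in enterocytes, and the groups overlapped. Its class difference was 1.64 ± 0.07 in DMSO and 0.02 ± 0.07 at 25 h, a change of -1.62 ± 0.10 (edgeR, adjusted p = 9.62e-15). Both classes were thus several times above their DMSO level, and enterocytes, which started lower, stood further above it. Pdia6, a disulfide isomerase, went from 236 and 244 against 24.6 and 28.3 CPM in DMSO to 720 and 738 against 465 and 478 CPM at 25 h. Its difference fell by 2.55 ± 0.12, from 3.18 to 0.63 (edgeR, adjusted p of the change = 5.7e-18). Goblet sums stayed above enterocytes in both libraries.

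Of 22 tested members of the chaperone list, 20 were higher and 1 lower in goblet sums in DMSO, and 11 were higher and 3 lower at 25 h. The median difference was 1.13 in DMSO and 0.22 at 25 h. A lower class difference was called for 17 and a higher one for 1, with a median of -0.93 beside -0.05 for all genes. The lower count was between 12 and 17 with each library left out in turn, and 13 by DESeq2. The count of 11 higher at 25 h was less steady, at 4 without 25 h replicate 2, 5 without replicate 1 and 6 by DESeq2. Manf, a secreted ER stress protein, changed by -1.50 ± 0.11 and still differed by 0.56 ± 0.07 at 25 h. Pdia3 changed by -1.34 ± 0.11, Pdia4 by -1.18 ± 0.17, P4hb by -0.96 ± 0.10 and Sil1, the exchange factor of BiP, by -1.87 ± 0.20. Hyou1, a large chaperone of the ER lumen, was at 24.6 and 12.2 against 3.41 and 3.35 CPM in DMSO and at 40.0 and 38.8 against 32.6 and 29.2 CPM at 25 h. Its change of -2.08 ± 0.33 was called, but not without DMSO replicate 1 (-1.50).

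For 2 chaperones the order of the classes was called as turned. Hsp90b1, the ER form of HSP90, was at 406 and 403 against 168 and 174 CPM in DMSO and at 1178 and 1192 against 1370 and 1466 CPM at 25 h. Its difference was 1.24 ± 0.07 in DMSO and -0.26 ± 0.06 at 25 h (edgeR, adjusted p = 0.00165), and -0.22 and not called without 25 h replicate 2 or by DESeq2. Calr, a lectin chaperone of glycoproteins, went from 775 and 730 against 350 and 336 CPM to 2178 and 2209 against 2457 and 2501 CPM. Its difference of -0.18 ± 0.06 at 25 h (edgeR, adjusted p = 0.0267) was not called without 25 h replicate 1 (-0.15), 25 h replicate 2 (-0.18) or DMSO replicate 1 (-0.16), or by DESeq2 (-0.14). Its change of -1.31 ± 0.09 was called each time. Canx, the membrane-bound partner of Calr, was lower in goblet sums at 25 h by 0.48 ± 0.08, at 378 and 381 against 535 and 520 CPM.

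Some folding genes kept a goblet excess. Txndc5, a thioredoxin-like isomerase, was at 182 and 194 against 30.0 and 34.5 CPM at 25 h, a difference of 2.55 ± 0.12 that had been 4.14 ± 0.13 in DMSO. Dnajc10, an ER reductase, differed by 1.61 ± 0.14, and its change of -0.42 ± 0.19 was not called. Ero1l, the oxidase that supplies disulfide bonds, was the single gene that moved upward. It was lower in DMSO goblet sums, at 294 and 379 against 707 and 729 CPM, and level at 25 h, at 846 and 821 against 834 and 842 CPM, a change of 1.09 ± 0.11 (edgeR, adjusted p = 1.45e-09).

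**Figure D4:**
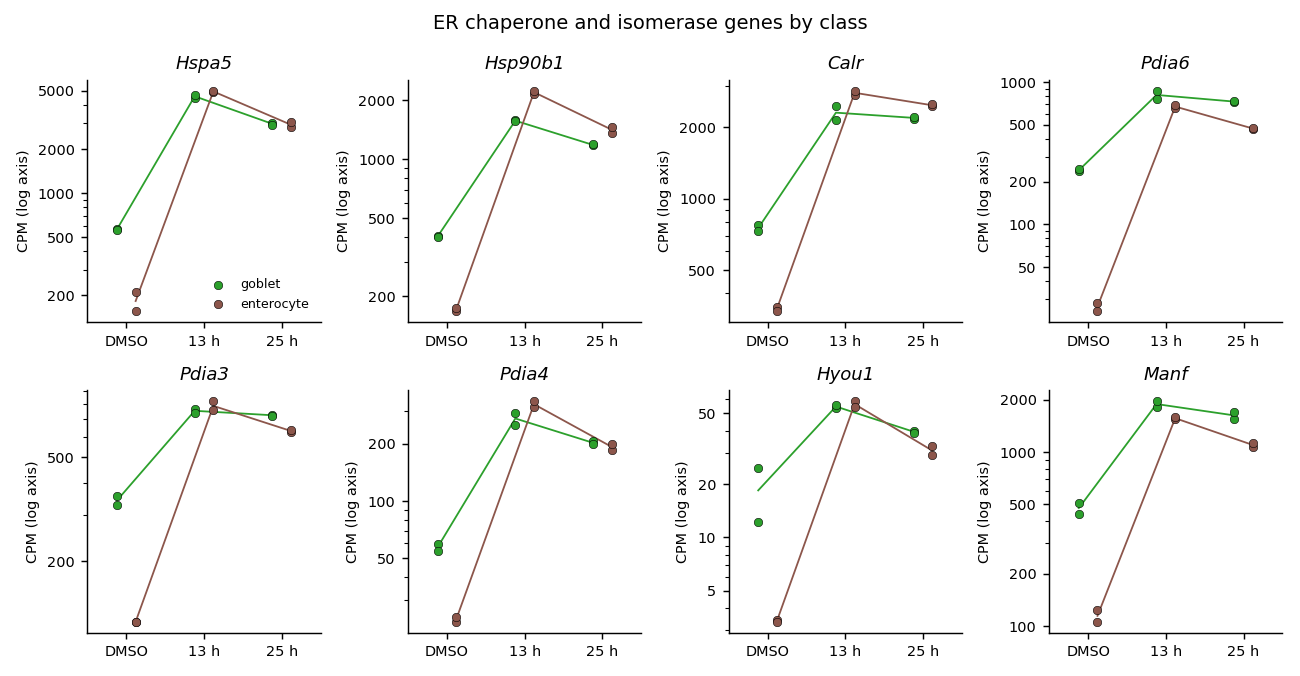
CPM (log axis) of 8 ER chaperone and isomerase genes in goblet and enterocyte sums, as points for the 2 libraries and lines through their means, in DMSO, at 13 h and at 25 h. In DMSO the goblet points lie above the enterocyte points in every panel, and at 13 h and 25 h the classes lie close together.

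Among 12 sensors and regulators of the UPR, 4 were higher in goblet sums at 25 h (Ern2, Atf6b, Creb3l2 and Atf6) and 0 lower. In DMSO 8 were higher and 1 lower. Of all genes 14.8% were higher and 17.6% lower at 25 h, and 17% and 18.1% in DMSO. Ern2, the IRE1 form of mucus-secreting epithelia, was at 23.7 and 26.4 against 0.12 and 0.11 CPM at 25 h. It had 35 and 34 UMIs in goblet sums against 1 and 1 in enterocytes at 25 h. In DMSO it had 35 and 31 against 0 and 2. Ern2 passed the filter on low counts through goblet sums, so its place among the 4 was partly set beforehand. Its difference of 7.55 ± 0.57 was not called as changed from the 8.52 ± 0.55 of DMSO (change -0.97 ± 1.45). With so few enterocyte UMIs the test cannot decide whether it changed. Xbp1, the transcription factor made active by IRE1, was at 204 and 152 against 67.0 and 70.9 CPM in DMSO and at 283 and 271 against 241 and 251 CPM at 25 h. Its difference went from 1.36 ± 0.10 to 0.17 ± 0.09, which was no longer called. Its change of -1.19 ± 0.13 was the single called change of the list, where 7.06% of all genes had one. Ern1, the widely expressed IRE1 form, differed by -0.02 ± 0.26, and Eif2ak3, which encodes PERK, by 0.56 ± 0.27, neither called. These are levels of RNA, and the 3' counts do not resolve Xbp1 splicing.

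The PERK-ATF4 branch did not follow the chaperones. Of 17 tested genes, 13 were higher and 2 lower in goblet sums at 25 h, against 7 and 4 in DMSO, with medians of 0.53 and 0.30. The change was called higher for 5 genes (Stc2, Gdf15, Cebpb, Trib3 and Ppp1r15a) and lower for 3 (Atf4, Nupr1 and Vldlr). Cebpb, Ppp1r15a, Nupr1 and Vldlr are named after their values were seen. The higher count was 2 without DMSO replicate 1 and 1 without DMSO replicate 2. Stc2, a secreted glycoprotein induced by ER stress, was at 5.27 and 8.17 CPM in goblet sums and 15.9 and 14.8 in enterocytes in DMSO. At 25 h it was at 62.4 and 80.0 CPM in goblet sums and 12.7 and 16.0 in enterocytes. The goblet sums thus moved from below to above the enterocytes, whose level stayed within a narrow range. The class difference went from -1.18 ± 0.32 to 2.31 ± 0.15, a change of 3.49 ± 0.31 (edgeR, adjusted p = 1.05e-10). Stc2 had a UMI in 49 of 98 and 51 of 86 goblet cells at 25 h and in 82 of 426 and 101 of 447 enterocytes, without thinning and with median UMIs lower in goblet cells.

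Gdf15, a stress-induced cytokine, was at 2.63 and 1.63 against 4.91 and 9.74 CPM in DMSO and at 52.9 and 52.8 against 31.3 and 24.4 CPM at 25 h. Its change of 2.72 ± 0.51 was 1.87 and not called without DMSO replicate 2. Trib3, a pseudokinase that restrains ATF4, was at 209 and 204 against 93.4 and 94.2 CPM at 25 h, a difference of 1.14 ± 0.09. In DMSO it was at 8.78 and 17.1 against 9.48 and 13.3 CPM, where the classes overlapped, and its change of 0.95 ± 0.25 was not called without DMSO replicate 1 (0.79), without DMSO replicate 2 (1.31) or by DESeq2 (1.00). Atf4 itself was at 387 and 449 against 297 and 296 CPM, a difference of 0.49 ± 0.08 that had been 1.11 ± 0.09 in DMSO. Its change of -0.62 ± 0.12 was -0.41 and not called without 25 h replicate 1. Ddit3, which encodes the pro-apoptotic factor CHOP, was lower in goblet sums at 25 h, at 573 and 536 against 734 and 758 CPM. Its difference was -0.43 ± 0.08 at 25 h and -0.57 ± 0.13 in DMSO, and the change of 0.14 ± 0.16 was not called. Of 24 apoptosis regulators 2 were higher and 4 lower at 25 h, shares no larger than the 14.8% and 17.6% of all genes. In DMSO 3 were higher and 5 lower, where 17% and 18.1% of all genes were. Xiap, an inhibitor of caspases, was at 33.2 and 39.6 against 63.4 and 65.4 CPM, a difference of -0.83 ± 0.15.

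Transcripts for amino acid synthesis and transport, which ATF4 controls in many cells, were mostly higher in goblet sums. Of 19 tested genes of amino acid synthesis and transport 17 were higher and 0 lower at 25 h, against 12 and 2 in DMSO, with medians of 1.12 and 1.10. The change was called for 3 in each direction: Phgdh, Cth and Slc38a2 higher, and Asns, Slc7a11 and Slc6a9 lower, of which Slc38a2 and Slc6a9 are named after their values were seen. Phgdh, the first enzyme of serine synthesis, was at 3.51 and 4.08 against 2.48 and 2.21 CPM in DMSO and at 68.5 and 76.9 against 10.97 and 13.0 CPM at 25 h. Both classes stood above DMSO, the goblet sums more so, and the class difference at 25 h was 2.60 ± 0.15. Its change of 1.90 ± 0.44 was 1.74 and not called without DMSO replicate 1. Cth, which makes cysteine by transsulfuration, went from 6.14 and 7.35 against 15.0 and 15.0 CPM to 50.9 and 48.1 against 27.1 and 27.8 CPM, a change of 1.997 ± 0.34. Asns, asparagine synthetase, was at 241 and 207 against 114 and 112 CPM at 25 h and changed by -0.87 ± 0.15. Slc1a5, a neutral amino acid transporter, kept a difference of 3.44 ± 0.13 (3.80 ± 0.16 in DMSO, change not called). Of 20 cytosolic aminoacyl-tRNA synthetases 14 were higher and 0 lower at 25 h. Wars, the tryptophanyl enzyme, was at 225 and 234 against 70.4 and 82.7 CPM, and its difference went from 3.28 ± 0.11 in DMSO to 1.59 ± 0.09.

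**Figure D5:**
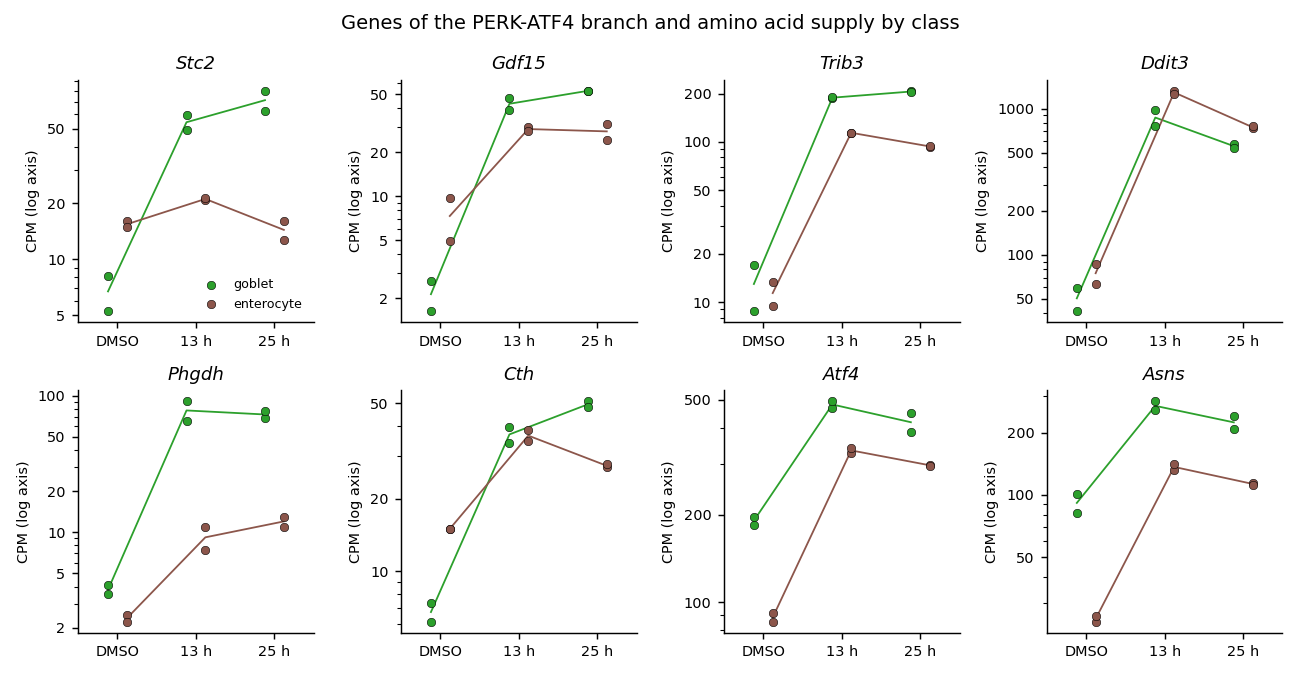
CPM (log axis) of 8 genes of the PERK-ATF4 branch and amino acid supply in goblet and enterocyte sums, as points for the 2 libraries and lines through their means, in DMSO, at 13 h and at 25 h. Stc2, Gdf15 and Cth lie lower in goblet cells in DMSO and higher at 25 h, while Ddit3 lies lower in goblet cells in all 3 groups at the mean.

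The rest of the early secretory path kept most of its goblet excess. Of 31 genes for entry into the ER and vesicle traffic 26 were higher and 1 lower at 25 h, against 25 and 1 in DMSO, with medians of 0.65 and 0.98. Tmed9, a cargo receptor, was at 264 and 305 against 78.8 and 80.7 CPM, a difference of 1.83 ± 0.09, with no called change. Ssr2, of the translocon-associated complex, differed by 1.57 ± 0.08 and Kdelr2, which returns chaperones to the ER, by 0.99 ± 0.08. Spcs2, of the signal peptidase, changed by -0.74 ± 0.12 and was 1 of 10 called lower. Of 21 genes of ER-associated degradation 11 were higher and 0 lower at 25 h, against 12 and 0 in DMSO. Selenos was at 585 and 658 against 210 and 224 CPM, a difference of 1.51 ± 0.08 that had been 2.68 ± 0.09. Edem2, which trims mannose from misfolded proteins, differed by 1.37 ± 0.11 (1.41 ± 0.12 in DMSO).

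N-glycosylation is the step that tunicamycin blocks, and Dpagt1 encodes its target enzyme. Dpagt1 was at 48.1 and 62.9 against 23.7 and 25.8 CPM at 25 h, a difference of 1.16 ± 0.15, and at 50.9 and 42.5 against 16.9 and 14.0 CPM in DMSO, a difference of 1.59 ± 0.17. Its change of -0.43 ± 0.21 was not called. Of 27 genes of N-glycosylation 12 were higher and 1 lower at 25 h, against 11 and 3 in DMSO, and the change was called lower for 6. Ostc, a subunit of the oligosaccharyltransferase, was at 391 and 371 against 221 and 217 CPM and changed by -1.06 ± 0.12. Ddost, another subunit, differed by 0.75 ± 0.08 with a change of -0.09 ± 0.11 that was not called. Qrich1, a regulator of the ER stress response, was at 38.0 and 36.5 against 42.3 and 37.6 CPM at 25 h, and neither its difference of -0.10 ± 0.16 nor its change of -0.57 ± 0.22 was called.

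Absorptive genes remained lower in goblet cells, in several cases by more than in DMSO. Of 17 lipid absorption genes 14 were lower and 0 higher in both groups, with medians of -1.78 at 25 h and -1.44 in DMSO (-1.55 at 25 h with the member at 0 set to its bound). Apob, the structural protein of lipoproteins, was at 80.0 and 62.9 against 422 and 406 CPM at 25 h and at 220 and 219 against 707 and 703 CPM in DMSO. Both classes stood lower at 25 h, goblet sums the more so, and its difference changed by -0.85 ± 0.14 to -2.53 ± 0.10. Saa1, an acute-phase apolipoprotein outside the absorptive lists, was at 17.6 and 31.8 against 259 and 240 CPM. Its difference changed by -1.34 ± 0.18 to -3.36 ± 0.14. Without 25 h replicate 1 the change was -0.79 and still called. Apoa1 had the lowest difference of the named genes at 25 h, -3.84 ± 0.31, but its enterocyte libraries held 97.5 and 302 CPM. Its difference was -5.25 without 25 h replicate 1 and -2.47 without replicate 2, and its change of -1.40 ± 0.44 was -0.02 without replicate 2, -2.73 without replicate 1, and not called by DESeq2 (-1.30).

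Of 22 brush border genes 18 were lower and 1 higher in goblet sums at 25 h, against 15 and 2 in DMSO, with medians of -1.42 and -0.83. The change was called lower for 9 and higher for 1, but for 3 to 8 with a library left out. Ceacam20, an adhesion protein of microvilli, changed by -0.997 ± 0.13 to -1.84 ± 0.10. Alpi, intestinal alkaline phosphatase, was at 7.46 and 7.76 against 65.0 and 75.2 CPM, a difference of -3.20 ± 0.21 with no called change. Of 17 absorptive transport genes 16 were lower and 0 higher, against 15 and 0 in DMSO. Slc51a, a basolateral bile acid exporter subunit, differed by -2.81 ± 0.13 and Slc40a1, the iron exporter, by -2.12 ± 0.10, neither with a called change. Of 16 enterocyte transcription factors 5 were higher and 6 lower at 25 h, against 6 and 6 in DMSO. Cdx1, an intestinal homeobox factor, was higher in goblet sums by 1.73 ± 0.09, as by 1.72 ± 0.09 in DMSO, and Vdr, the vitamin D receptor, was lower by 1.86 ± 0.13.

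Interferon-response genes lost their goblet excess. Of 18 tested genes 12 were higher and 1 lower in goblet sums in DMSO, and 2 were higher and 4 lower at 25 h. The median went from 0.80 to -0.33 (-0.18 with the member at 0 at its bound). The change was called lower for 9 and higher for 0, with 5 lower by DESeq2 and between 5 and 9 with a library left out (5 without DMSO replicate 1 or 25 h replicate 1). Ifit1, which binds viral RNA caps, was at 176 and 175 against 170 and 167 CPM in DMSO and at 10.8 and 10.1 against 41.7 and 41.0 CPM at 25 h. The classes were level in DMSO and apart at 25 h, where both were lower, and the change was -2.04 ± 0.24 (edgeR, adjusted p = 4.89e-08). Isg15, a ubiquitin-like modifier, was at 176 and 166 against 60.0 and 70.0 CPM in DMSO and at 23.7 and 14.0 against 30.5 and 23.7 CPM at 25 h, a change of -1.91 ± 0.23. Irf7, a transcription factor of the interferon response, went from a difference of 0.59 ± 0.08 to -0.83 ± 0.12. Zbp1, a nucleic acid sensor, stayed higher in goblet sums by 2.17 ± 0.27 after 4.29 ± 0.16 in DMSO. Its change of -2.12 ± 0.29 was -1.49 without 25 h replicate 1.

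Sterol synthesis narrowed in the same way. Of 22 cholesterol synthesis genes 19 were higher and 0 lower in goblet sums in DMSO, and 10 were higher and 3 lower at 25 h, with medians of 0.92 and 0.25. A lower difference was called for 15, and for 8 to 14 with a library left out (8 without DMSO replicate 1). Hmgcs1, which makes the HMG-CoA of the pathway, was at 1135 and 998 against 433 and 462 CPM in DMSO and at 289 and 198 against 182 and 185 CPM at 25 h. Its difference of 0.40 ± 0.10 at 25 h was 0.13 and not called without replicate 1, and its change was -0.85 ± 0.13. Fdps, farnesyl diphosphate synthase, differed by 0.54 ± 0.08 after 1.42 ± 0.08 in DMSO. Sc5d, a late enzyme of the pathway, was lower in goblet sums at 25 h by 0.66 ± 0.11.

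Ribosomal protein genes moved the other way and as a body. Of 81 tested genes 77 were lower and 1 higher in goblet sums in DMSO, and 51 were higher and 0 lower at 25 h, with medians of -0.52 and 0.20. A higher difference was called for 79 and a lower one for 0, with a median of 0.70, and for 75 to 79 with a library left out. Together they took 5.29% and 5.21% of goblet UMIs in DMSO and 15.8% and 17.4% at 25 h, against 8.26% and 8.26%, then 14.1% and 15.3% of enterocyte UMIs. Both classes thus stood higher at 25 h and goblet cells passed the enterocytes. Rps19 was at 682 and 705 against 1224 and 1281 CPM in DMSO and at 2820 and 3352 against 2396 and 2700 CPM at 25 h, a change of 1.13 ± 0.09 (edgeR, adjusted p = 2.97e-12). Rpl12 changed by 1.41 ± 0.12, from -0.73 ± 0.09 to 0.68 ± 0.07. Rplp1 ended level, at 2156 and 2739 against 2162 and 2644 CPM, with a difference of 0.02 ± 0.06. The count of 51 at 25 h was 23 without 25 h replicate 2 and 22, with 4 lower, in cells with at most 10% mitochondrial UMIs. Ribosomal protein genes have many processed pseudogenes, and how the authors treated reads shared with them is not stated.

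Genes of respiration stayed higher in enterocytes throughout. Of 78 nuclear genes of oxidative phosphorylation 61 were lower and 0 higher in goblet sums at 25 h, against 74 and 0 in DMSO, with medians of -0.48 and -0.67. The change was called higher for 8 and lower for 0, and for 4 to 12 with a library left out (4 without DMSO replicate 1 or 25 h replicate 2). Cox4i1, a subunit of cytochrome oxidase, was at 1434 and 1345 against 2344 and 2362 CPM, a difference of -0.76 ± 0.06 that was not called as changed from -0.87 ± 0.06. Of 13 protein-coding genes of the mitochondrial genome 12 were lower and 0 higher, with medians of -1.11 at 25 h and -0.98 in DMSO. A lower difference was called for 7 of the 13 and a higher one for 0, with a median change of -0.29. That count was 1 without 25 h replicate 1, 3 without 25 h replicate 2, 1 (with 1 higher) without DMSO replicate 2, and 1 by DESeq2 or with total-count scaling. mt-Nd1, whose change was not called, was at 1810 and 1758 against 4709 and 4825 CPM, a difference of -1.42 ± 0.06 (-1.44 ± 0.06 in DMSO).

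Genes outside the lists were taken by the size of their change. Ccl6, a chemokine, was at 440 and 394 against 20.7 and 19.4 CPM in DMSO and at 61.0 and 73.0 against 19.9 and 17.8 CPM at 25 h, a change of -2.55 ± 0.17. The goblet level was lower at 25 h while the enterocyte level lay in the same range. Lyz1, the lysozyme of Paneth cells, was at 434 and 291 CPM in DMSO goblet sums and at 74.6 and 81.5 at 25 h, against 5 CPM or less in enterocytes. Its change of -2.03 ± 0.35 was -0.90 without 25 h replicate 1 and -1.84 by DESeq2, neither called. Of the 7 Paneth markers 2 were called higher in goblet sums at 25 h (Lyz1 and Mmp7) and 3 in DMSO, and Defa17, Defa30 and Habp2 were at 0 UMIs in every sum. The 7 markers summed to 624 and 410 CPM in DMSO goblet sums and to 82.0 and 205 at 25 h. Of the 264 UMIs behind the last value, 143 were Mmp7 UMIs of 1 cell.

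Ccnd2, cyclin D2, was at 12.3 and 4.90 against 3.58 and 3.29 CPM in DMSO and at 102 and 130 against 14.1 and 12.8 CPM at 25 h. Its change of 1.80 ± 0.36 was 1.39 and not called without DMSO replicate 2. Nme1, a nucleoside diphosphate kinase, was level in DMSO, at 24.6 and 24.5 against 23.9 and 24.1 CPM, and apart at 25 h, at 67.1 and 69.9 against 20.9 and 19.8 CPM, a change of 1.72 ± 0.23. Mt1, a metal-binding metallothionein, went from 159 and 201 against 1763 and 1792 CPM to 60.4 and 113 against 202 and 264 CPM. Both classes were lower at 25 h, enterocytes the more so, and the class difference went from -3.31 ± 0.10 to -1.45 ± 0.12. Acta1, an actin of striated muscle, was at 151 and 238 against 38.0 and 31.3 CPM at 25 h. Its DMSO goblet libraries held 48.3 and 131 CPM, and its change of 2.35 ± 0.30 was 1.75 without DMSO replicate 1 and 3.38 without DMSO replicate 2, and not called by DESeq2 (2.55).

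Few class differences were called as different between 13 h and 25 h. The class difference at 25 h was called as different from that at 13 h for 54 genes (0.516%), 31 higher and 23 lower, and from DMSO to 13 h it was called for 503 (4.81%). These comparisons share libraries, so their values are given side by side. Hspa5 differed by -0.11 at 13 h, at 4469 and 4724 against 4905 and 5016 CPM, and Pdia6 by 0.27, Hsp90b1 by -0.48 and Calr by -0.28. None of these 4 was called as changed from 13 h to 25 h. Across the chaperone list 1 gene, Ero1l, was called higher from 13 h to 25 h, at 0.52, and 0 lower. The change from 13 h was positive, mostly without a call, for 20 of the 22 members. Its median was 0.26 beside 0.02 for all genes. The median class difference of the list was -0.04 at 13 h and 0.22 at 25 h. Ribosomal protein genes had a median class difference of -0.03 at 13 h, with 14 higher and 14 lower, where 12.5% and 16.7% of all genes were higher and lower and 29.1% were called, and 7 were called higher from 13 h to 25 h, among them Rps19 at 0.45. Stc2 went from 1.37 at 13 h to 2.31 at 25 h, a called change of 0.94 (edgeR, adjusted p = 0.0217). Phgdh, at 3.08, and Gdf15, at 0.57, were not called as changed after 13 h.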

How the data were processed

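Droplet libraries of 6 cultures were processed by the authors with Cell Ranger against mm10, per the submitters' processing notes, and the deposited values are raw UMI counts per gene and cell, with a class name in each cell's name. Neither the version nor the method of class assignment is given there. Cells needed at least 1000 UMIs, 500 genes and at most 25% mitochondrial UMIs. Of the deposited cells 96 were left out, all for mitochondrial content. Scrublet (scanpy 1.11.5) marked 31 cells (0.605%), which were kept. No cell barcode was shared between the 25 h libraries. Counts were summed per library and class (12 sums) and fitted with edgeR 4.0.16 (R 4.3.3; TMM, filterByExpr, quasi-likelihood F test, library block, class effect per group, 3 residual degrees of freedom), with Benjamini-Hochberg adjustment over 10458 genes. With 2 libraries a group, p-values measure the spread between these libraries.

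In simulated counts with 2-fold changes, 72% of changed genes were called in the class difference at 25 h (10157 genes) and 58% in the change (10167 genes). With 4-fold changes, a log2 of 2, 97% were called in each. Changed genes were drawn above a floor of mean CPM, all genes had the same dispersion, and no other gene differed by class. These shares need not hold for real genes with fewer counts or a wider spread. Members and lists were chosen with earlier results of these data known. Genes are named by rule: the 12 highest and 12 lowest called class differences at 25 h and changes among genes at a mean of 20 CPM or more with separated libraries, up to 5 members of each list by adjusted p, and whole lists for mucus, lineage, UPR sensors and chaperones. Alternatives were DESeq2 1.42.0, total-count scaling, no filter on low counts, no library block, an added replicate term, other cell filters and leaving out each library. Promoters are RefSeq's on GRCm38.p6, the patch release of mm10. Symbols matched 27645 of 27998 gene IDs. Intervals cover counting error only. Some genes are not reported here.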

Additional observations from a re-analysis of the deposited data

Results flagged for a closer look

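The class difference at 25 h differed from that in DMSO, by a test of the difference itself (the edgeR interaction), for 738 genes. In genes at least 2-fold apart in DMSO, which leaves out ribosomal protein genes, 14 were called in both groups with opposite sign. Goblet sums were higher in DMSO and lower at 25 h for 5 of them: Hsp90b1, Calr, Oas3, 2010109I03Rik and Sprr1a. The other 9 were lower in DMSO and higher at 25 h: Stc2, Gdf15, Cth, Tat, Tmem158, Abca12, Acsl4, Acox2 and Chchd10. Those outside the rule for named genes are given because the counts are small. By list, 17 ER chaperone genes had a lower class difference at 25 h and 79 ribosomal protein genes a higher one.

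Of the genes named by rule, 29 had a called change of 1.5 or more in size on the log2 scale, and these are given here. Other genes also changed by that much, among them Rnase1 (4.87), Nifk (4.07), Oas3 (-3.68), Rsad2 (-2.19) and Oasl2 (-1.61), which are named after their values were seen. Among folding and stress genes the change was -2.55 for Pdia6, -2.08 for Hyou1, -1.87 for Sil1, -1.62 for Hspa5, -1.59 for Txndc5 and -1.69 for Wars. Of the interferon-response list it was -2.12 for Zbp1, -2.04 for Ifit1 and -1.91 for Isg15. Among other genes higher in DMSO goblet sums it was -2.55 for Ccl6, -2.35 for Sh3pxd2a, -2.09 for Akr1b3, -2.07 for Ddx60, -2.08 for Chst4, -2.04 for 4930539E08Rik, -2.03 for Lyz1 and -1.96 for Thop1. Nat8f5, lower in goblet sums in DMSO, changed by -1.63, and by -0.28 without DMSO replicate 2.

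The upward changes of genes named by rule were 3.62 for Cyb5r1, 3.49 for Stc2, 2.75 for Snhg12, 2.72 for Gdf15, 2.38 for Tat, 2.35 for Acta1, 2.0 for Cth, 1.90 for Phgdh, 1.86 for Mt1, 1.80 for Ccnd2 and 1.72 for Nme1. Cyb5r1 was at 0 and 1.63 CPM in DMSO goblet sums and 57.0 and 80.0 at 25 h, so its change rests on few DMSO counts. Snhg12 was not called without DMSO replicate 2, at 2.36.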

How the results depend on the processing

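Each library was left out in turn, which leaves an arm with 1 sample whose spread is assumed like that of the others, and the other alternatives were run 1 at a time. At 25 h, 1544 genes higher and 1843 lower became 946 to 1589 and 1183 to 1844 with a library left out, and 995 and 980 by DESeq2. In DMSO, 1773 and 1893 became 1093 to 1733 and 1175 to 2154, and 1124 and 1132 by DESeq2. For the change from DMSO to 25 h, 267 and 471 became 156 to 250 and 203 to 456, then 155 and 155 by DESeq2, and 405 and 282 with total-count scaling. For the change from 13 h, 31 and 23 became 6 to 30 and 7 to 22, 8 and 9 by DESeq2, 57 and 40 with no filter on low counts, and 17 and 14 with only the libraries compared. The share of DMSO differences called again at 25 h was 56.73% to 79.45% for goblet-higher genes, with 78.4% from only the libraries compared, and 53.76% to 79.86% for goblet-lower genes. Zg16 turned from -0.58 to 0.643 without 25 h replicate 1 and was -1.529 without replicate 2. Mmp7 turned from 0.32 to -3.363 without 25 h replicate 2 and was 1.268 without replicate 1. The cause was not tested for these.

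Replicate numbers showed no pairing in the class difference: the correlations of same-numbered libraries' deviations were -0.001, -0.006 and 0.036. A shift shared by both classes of a library cancels in this difference, so the check cannot show whether libraries were prepared together. A replicate term beside the library block gave 775 called genes in the change from DMSO and 74 in that from 13 h. Without the library block the counts were 654 and 18 (9 higher and 9 lower for the latter). As reported, with the library block alone, they were 738 and 54. Depth set the marker shares. At 25 h, Muc2 had a UMI in 68.367% of goblet cells of replicate 1 at 3000 UMIs and 91.837% without thinning, and in 0.939% and 5.164% of enterocytes of replicate 1 and 1.342% and 6.711% of replicate 2. Atoh1 had one in 82.653% and 91.86% of goblet cells without thinning, in 68.605% of replicate 2 at 3000 UMIs, and in 3.991% and 3.356% of enterocytes without thinning. Median genes per goblet cell were 3170.5 in cells with at most 10% mitochondrial UMIs. For single genes, 5561 of 5807 alternative values kept direction and side of the threshold, 213 lost the call, 31 gained it and 2 reversed. That pool includes class differences at 25 h and genes that were not called, so called changes were less steady than it implies. Of the 87 named genes with a called change from DMSO, 28 lost the call by DESeq2 and 15 with total-count scaling.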

Other observations

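A few genes outside the lists had goblet counts at 25 h that were rare or absent in DMSO. Try5, a trypsin family gene with near-identical copies that make its counts uncertain, had 0 UMIs in both DMSO goblet libraries. At 25 h it had 438 and 448 UMIs in goblet sums and 15 and 3 in enterocytes. They came from 40 of 98 and 29 of 86 goblet cells, with at most 56 and 73 UMIs in a cell. Against a floor of 3 counts over the DMSO goblet libraries, the goblet level at 25 h was at least 254-fold higher. Hsd17b13, a lipid droplet protein, had 0 UMIs in DMSO goblet sums and was at 34.6 and 28.7 CPM in goblet sums at 25 h, at least 24.9-fold higher than the same floor. It had a UMI in 19 of 98 and 16 of 86 goblet cells. Enterocytes were at 177 and 197 CPM at 25 h, with a UMI in 306 of 426 and 342 of 447 cells, and the part of free enterocyte RNA in the goblet counts was not tested.

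Mmp7, a Paneth cell protease, had 7 UMIs in the goblet sum of 25 h replicate 1 and 155 in that of replicate 2, of which 143 came from 1 cell.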
